A study of Mus musculus with 10 samples.

Results

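The peaks described here are stretches of RNA called as enriched in N6-methyladenosine (m6A) precipitates of mouse embryonic stem cells. Their midpoint lay in no RefSeq protein-coding or long non-coding RNA (lncRNA) gene span of mm10. There were 871 such peaks among 19132 m6A peaks in all. The Mettl3 knockout list held 291 of them among its 6764 peaks (4.3%, exact 95% interval 3.83 to 4.81), and the Mettl3 wild-type list held 580 among 12368 (4.69%, 4.32 to 5.08). Peaks of both lists are called m6A peaks here after the precipitates. Whether those of the knockout list carry m6A was not tested.

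m6A is a methyl mark placed on adenosines of messenger RNAs and many non-coding RNAs while they are being transcribed. METTL3 is the subunit that carries out the methylation, mostly within a short DRACH sequence, and YTHDC1 is the nuclear protein that reads it. In embryonic stem cells, m6A and YTHDC1 are known for acting on RNAs of retrotransposons and on other chromatin-associated RNAs, many of which arise outside annotated genes. RNA outside a gene span can also be a transcript that starts before the annotated start, one that runs on past the annotated end, or a read from a gene that was aligned to a processed pseudogene copy of it.

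The series held 10 samples of male mouse embryonic stem cells, derived from the inner cell mass and grown without feeders in serum and LIF. The m6A samples, made from polyA RNA, were 2 precipitates and 2 inputs of Mettl3-KO cells, and 2 precipitates and 2 inputs of Mettl3-WT cells. The other samples were 1 RNA pull-down (RNA immunoprecipitation, RIP) of YTHDC1 and 1 matched input from Halo-Ythdc1 knockin cells, made from total RNA without fragmentation and washed under denaturing conditions. The sources used here do not give how the Mettl3 deletion was made or whether the knockout line was 1 clone. Under cell type, the labels call the knockout samples wild type, and the description of 1 knockout precipitate of 2 points to the wild-type list. The titles were followed. The lists give 1 set of positions per genotype with no score, strand or replicate value, so no result below has a replicate spread, the read depth is unknown, and neither the loss of Mettl3 nor the cell type could be checked by a level. No peak outside genes had Mettl3 or Ythdc1 as its nearest gene (0 in the knockout list and 0 in the wild-type list). A peak missing from a list can mean less m6A on the RNA, lower depth or enrichment, fewer cells with the RNA or less RNA per cell. These cannot be told apart here.

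The sequences that follow show where such peaks lay at gene starts, since peaks just before a start took a larger share of the knockout list. Each is the RefSeq (GRCm38.p6) window of 300 bases around a gene start, 5′ to 3′ on the gene's strand, with 250 bases before the start and 50 after it. Capitals mark the bases covered by the m6A peak. The first 4 windows carry peaks of the knockout list.
Pa2g4, chr10:128565885-128566184, minus strand: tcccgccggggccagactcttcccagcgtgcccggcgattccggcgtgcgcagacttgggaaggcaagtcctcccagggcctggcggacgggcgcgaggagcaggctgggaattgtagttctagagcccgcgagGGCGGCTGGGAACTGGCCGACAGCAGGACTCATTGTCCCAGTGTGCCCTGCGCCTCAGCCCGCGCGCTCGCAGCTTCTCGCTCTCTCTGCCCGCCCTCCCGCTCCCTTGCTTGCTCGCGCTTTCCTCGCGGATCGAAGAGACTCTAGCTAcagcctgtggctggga
Ywhaq, chr12:21417387-21417686, minus strand: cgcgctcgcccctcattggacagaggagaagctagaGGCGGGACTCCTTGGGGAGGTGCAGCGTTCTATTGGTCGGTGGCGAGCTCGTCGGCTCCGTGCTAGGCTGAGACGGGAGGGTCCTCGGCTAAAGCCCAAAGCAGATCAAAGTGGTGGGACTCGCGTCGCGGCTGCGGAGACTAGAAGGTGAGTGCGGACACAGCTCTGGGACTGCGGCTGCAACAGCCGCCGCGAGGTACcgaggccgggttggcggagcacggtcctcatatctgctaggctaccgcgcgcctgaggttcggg
Rpl26, chr11:68901316-68901615, plus strand: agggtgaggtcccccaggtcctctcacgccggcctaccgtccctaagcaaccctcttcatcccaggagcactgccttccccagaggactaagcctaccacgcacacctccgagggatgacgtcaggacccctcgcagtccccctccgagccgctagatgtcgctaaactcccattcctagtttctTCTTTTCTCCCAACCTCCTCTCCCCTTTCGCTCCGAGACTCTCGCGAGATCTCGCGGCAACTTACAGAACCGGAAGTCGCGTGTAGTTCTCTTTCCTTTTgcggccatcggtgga
Malat1, chr19:5802623-5802922, minus strand: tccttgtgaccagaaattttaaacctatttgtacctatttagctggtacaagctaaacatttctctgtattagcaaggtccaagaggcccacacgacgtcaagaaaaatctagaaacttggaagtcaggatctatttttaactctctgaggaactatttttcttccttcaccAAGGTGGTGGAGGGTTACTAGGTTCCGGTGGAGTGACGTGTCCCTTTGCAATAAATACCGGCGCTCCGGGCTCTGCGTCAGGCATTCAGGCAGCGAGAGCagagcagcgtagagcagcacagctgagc
The last 2 windows carry peaks of the wild-type list.
Spry2, chr14:105896770-105897069, minus strand: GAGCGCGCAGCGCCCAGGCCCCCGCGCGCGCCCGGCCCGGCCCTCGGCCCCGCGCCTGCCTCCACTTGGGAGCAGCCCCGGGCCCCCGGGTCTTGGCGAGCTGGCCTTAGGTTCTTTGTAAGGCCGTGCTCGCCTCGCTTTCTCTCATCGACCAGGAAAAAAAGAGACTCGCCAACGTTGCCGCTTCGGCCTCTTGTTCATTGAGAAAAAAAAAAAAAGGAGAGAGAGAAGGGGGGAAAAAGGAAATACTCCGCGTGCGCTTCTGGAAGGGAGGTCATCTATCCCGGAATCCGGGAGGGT
Klf2, chr8:72318812-72319111, plus strand: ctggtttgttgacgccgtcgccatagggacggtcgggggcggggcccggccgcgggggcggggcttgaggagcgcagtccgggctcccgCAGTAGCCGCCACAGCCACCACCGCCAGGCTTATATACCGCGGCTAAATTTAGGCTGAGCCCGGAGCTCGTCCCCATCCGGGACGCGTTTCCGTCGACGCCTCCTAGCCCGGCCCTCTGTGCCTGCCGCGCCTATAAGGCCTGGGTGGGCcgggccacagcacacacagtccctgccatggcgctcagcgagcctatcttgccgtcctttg

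These 6 genes were chosen after their positions were seen. Pa2g4 encodes an RNA-binding protein linked to proliferation, and its peak of 150 bp (chr10:128565901-128566050) had the same start and end in the knockout list and the wild-type list and overlapped a YTHDC1 RIP peak of 226 bp. Ywhaq encodes a 14-3-3 adaptor protein. Its knockout peak was 200 bp wide and its wild-type peak 150 bp, with the same lowest coordinate. The 100 bp peaks over the starts of Rpl26, a ribosomal protein gene, and Malat1, an abundant nuclear lncRNA, were in the knockout list only. At Spry2, an inhibitor of receptor tyrosine kinase signalling, a wild-type peak of 650 bp covered all 300 bases of the window and overlapped a RIP peak of 301 bp. At Klf2, a transcription factor of naive pluripotency, the wild-type peak of 150 bp overlapped a wider knockout peak of 350 bp, whose midpoint was not among the knockout peaks outside genes.

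The letters GGACT, the best known form of the m6A sequence, were searched on both strands of these windows. They stood on the sense strand 3 times in the covered part of the Ywhaq window and 1 time in that of Pa2g4, and on neither strand in the covered parts of the other 4. Of all 32851 RefSeq promoter windows, 45.5% held GGACT on either strand. Of the windows touched by peaks outside genes, 36 of 68 held it for the knockout list (52.9%) and 18 of 34 for the wild-type list (52.9%). In the covered bases alone (at least 50 bases) the shares were 21 of 64 (32.8%) and 13 of 32 (40.6%). A match is a string of letters and does not locate a methylated base.

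Within 200 bp of a gene end the knockout list held a larger share of its peaks outside genes than the wild-type list. The median distance from a peak's midpoint to the nearest gene end was 9751.5 bp in the knockout list (quartiles 306.5 and 34348 bp) and 13461 bp in the wild-type list (2681.25 and 43359 bp). Within 200 bp of a gene end lay 64 of 291 knockout peaks (22.0%, 17.4 to 27.2) and 41 of 580 wild-type peaks (7.07%, 5.12 to 9.47), an odds ratio of 3.71 (adjusted p = 3.4e-09, two-sided Fisher's exact test, a limit chosen after the data were seen). Within the planned 5 kb lay 115 knockout peaks (39.5%) and 190 wild-type peaks (32.8%), a difference that missed the threshold (odds ratio 1.34, 95% interval 1.0 to 1.8, Fisher's exact test, adjusted p = 0.069). Within 1 kb the odds ratio was 1.98 (Fisher's exact test, adjusted p = 0.00025). Without the peaks whose edge reached into a gene span, the direction at 5 kb turned, with 60 of 236 in the knockout list and 155 of 545 in the wild-type list (odds ratio 0.858, Fisher's exact test, adjusted p = 0.5). With spans of all gene types counted as genes, the odds ratio at 5 kb was 2.17 and passed. Beyond 50 kb lay 52 knockout peaks (17.9%) and 124 wild-type peaks (21.4%). Peaks are not replicates, so this and every later p-value compares the lists and not the cell lines.

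**Figure D1:**
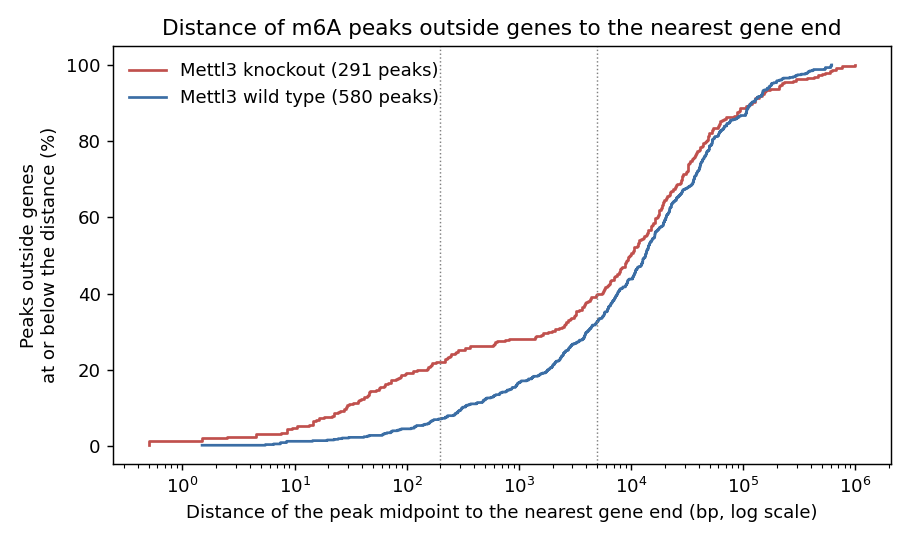
Cumulative share of the peaks outside genes (y axis, percent) against the distance of their midpoint to the nearest protein-coding or lncRNA gene end (x axis, bp, log scale), with 291 knockout peaks in red and 580 wild-type peaks in blue and dotted lines at 200 bp and 5 kb. At 200 bp the knockout curve has reached 22.0% and the wild-type curve 7.07%, and the curves meet at long distances.

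The side of the gene differed with it. The gene's strand was known for 98 of the 115 knockout peaks and 149 of the 190 wild-type peaks within 5 kb. Before the gene start lay 73 of 98 knockout peaks (74.5%, 64.7 to 82.8) and 63 of 149 wild-type peaks (42.3%, 34.2 to 50.6), with odds 3.99 times as high in the knockout list (2.28 to 6.97, adjusted p = 1.9e-06, Fisher's exact test, a comparison added after the data were seen). Within 200 bp the counts before the start were 49 of 54 in the knockout list (90.7%) and 18 of 32 in the wild-type list (56.2%). Beyond 5 kb, 76 of 129 lay on the start side in the knockout list (58.9%) and 158 of 315 in the wild-type list (50.2%). Among peaks wider than their list's median the odds ratio for the start side within 5 kb was 3.18 and missed the threshold. Without peaks reaching into a gene span it was 2.28 (29 of 51 in the knockout list and 44 of 120 in the wild-type list), and with spans of all gene types 7.79, both past the threshold.

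**Figure D2:**
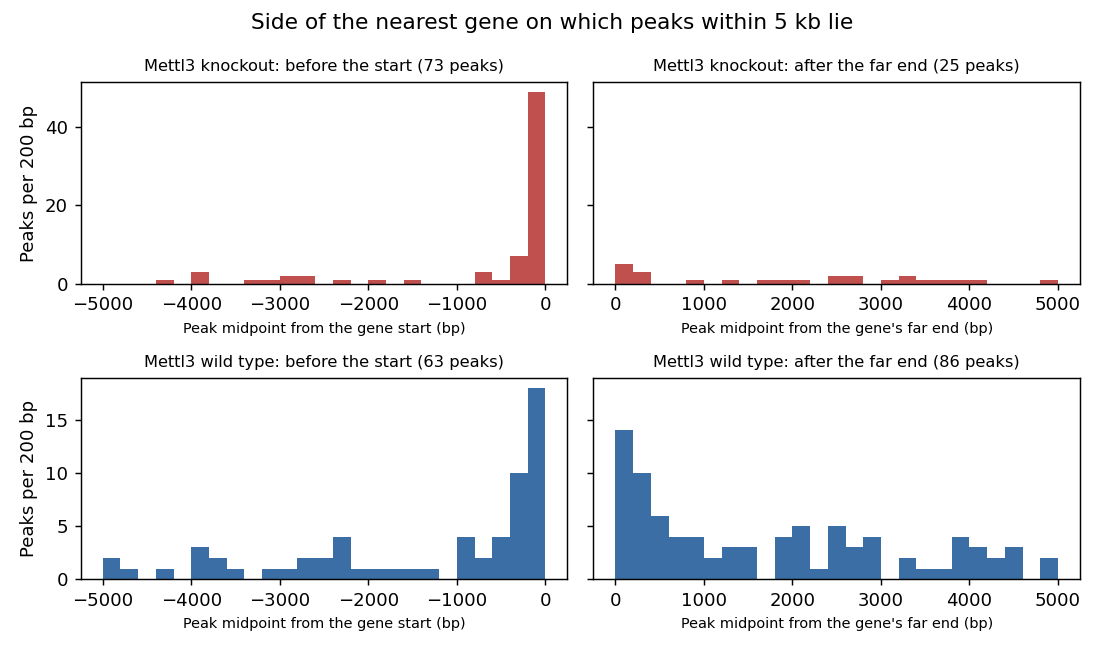
Peaks outside genes within 5 kb of the nearest gene of known strand, counted in 200 bp bins (y axis) by the distance of the midpoint from the gene start (left panels, negative bp) or from the far end (right panels, bp), with knockout peaks in the upper row and wild-type peaks in the lower row on a scale of its own. The 49 knockout peaks in the last bin before the start stand above every other bin of that row, and the wild-type peaks lie on both sides.

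Of the 49 knockout peaks within 200 bp before a start, 19 were 100 bp wide, the narrowest width in either list (38.8%, against 15.1% of all knockout peaks outside genes), and of the 18 wild-type peaks there, 7 were (38.9%, against 7.76%). Knockout peaks of 100 bp lay at the starts of Rps25 (63.5 bp before it) and Fau (46.5 bp), which encode proteins of the small ribosomal subunit, and of Snrpg (39.5 bp), a core spliceosome protein. Others lay before Nhp2 (22.5 bp), a component of box H/ACA ribonucleoproteins, Psmd12 (27.5 bp), a proteasome subunit, and Eif4a3 (7.5 bp), a core factor of the exon junction complex. Only the Eif4a3 peak among these 6 overlapped a RIP peak, and none overlapped a wild-type peak. These genes too were chosen after their positions were seen. The wider knockout peaks at starts included 650 bp across the starts of Ecd and Fam149b, which lie back to back, 650 bp before Gpc4, a cell-surface glypican, 600 bp before Mllt6 and 550 bp before Fads2, a fatty acid desaturase. At Mllt6 and Fads2 the wild-type list held a peak of 250 bp inside the knockout peak.

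In all, 52 knockout peaks outside genes (17.9%) and 30 wild-type peaks (5.17%) touched a promoter window. Of these, 14 knockout peaks (26.9%) and 3 wild-type peaks (10.0%) touched windows of genes on both strands, as at Ecd and Fam149b. With no strand in the lists, such a peak cannot be given to either gene. The edge of 55 knockout peaks (18.9%) and 35 wild-type peaks (6.03%) reached into a gene span although the midpoint lay outside it. Just outside the rule's limit, within 50 bp of a gene end, there were 42 knockout peaks with a median width of 150 bp, against 200 just inside it with a median of 200 bp. For the wild-type list these were 16 peaks of 150 bp just outside and 60 of 200 bp just inside.

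The genes next to the peaks did not all carry a peak of their own. Of the 73 genes with a knockout peak before their start, 23 held a knockout peak within their span (31.5%), while 4210 of all 34631 genes held one (12.2%). Of the 63 wild-type peaks before a start, 32 belonged to a gene that held a wild-type peak (50.8%), and of the 86 past a far end, 29 did (33.7%), while 6997 of all genes held one (20.2%). Past the far end lay only 25 knockout peaks, 3 of them next to a gene with a knockout peak. The 63 and 86 wild-type peaks lay by 58 and 74 distinct genes, so their shares count peaks and not genes. All genes include those that may have no RNA in these cells, and a base of expressed genes was not available.

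Wide wild-type peaks lay past several gene ends. The widest peak outside genes in either list lay 170.5 bp past the end of Nhlrc3 (chr3:53451001-53452650, 1650 bp) and overlapped neither a knockout peak nor a RIP peak. It also covered 282 of the 300 bases of the promoter window of Gm16206, and without a strand it cannot be given to either gene. At Naif1, peaks of 900 and 650 bp stood 100 bp apart past the end. At H1f2, a linker histone gene, a peak of 800 bp lay 269.5 bp past the end. A narrower peak, of 300 bp, lay 516.5 bp past the end of Zfp42, which encodes the stem cell marker REX1. None of these overlapped a knockout peak. Of the 86 wild-type peaks past an end, 19 followed a lncRNA gene (22.1%) and 7 overlapped a RIP peak (8.14%), as did 13.5% of all wild-type peaks.

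Pseudogenes, which are copies of genes that have mostly lost their coding capacity, held a large part of the peaks. The midpoint lay in a pseudogene for 141 knockout peaks (48.5%, 42.6 to 54.4) and 258 wild-type peaks (44.5%, 40.4 to 48.6). In genes of any other type, pseudogenes and small RNAs together, lay 143 knockout peaks (49.1%) and 264 wild-type peaks (45.5%), which did not pass Fisher's exact test (odds ratio 1.16, 0.872 to 1.53, adjusted p = 0.39). The peaks fell in 130 distinct pseudogenes for the knockout list and 202 for the wild-type list, 45 of them in both, among 10622 pseudogenes of the gene table. The midpoints in pseudogenes lay far from genes, with a median distance of 23458.5 bp in the knockout list and 20763.5 bp in the wild-type list. The peaks in no gene of any type lay nearer, with medians of 349.5 bp and 6942.5 bp.

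**Figure D3:**
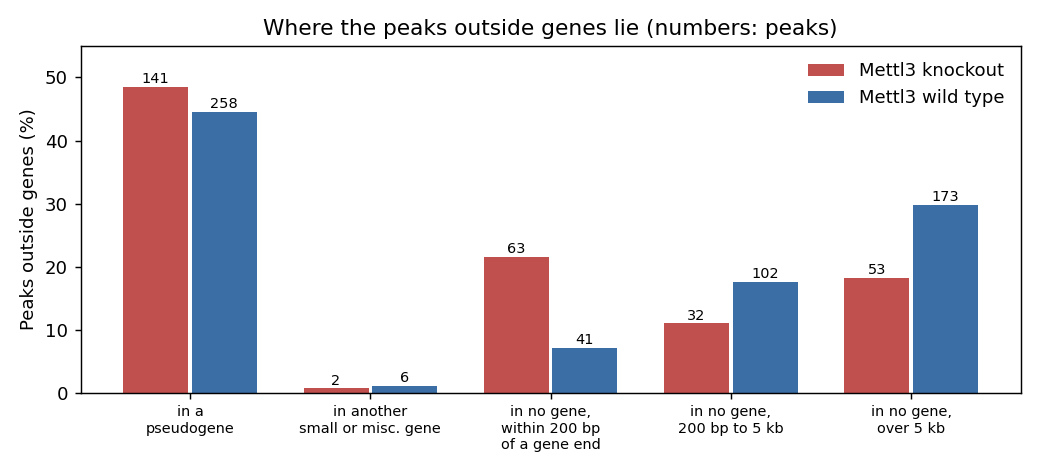
Share of the peaks outside genes (y axis, percent, bar labels give the number of peaks) by what their midpoint lay in or near, with knockout bars in red to the left of wild-type bars in blue. Pseudogenes hold 141 knockout and 258 wild-type peaks, and the class within 200 bp of a gene end holds 63 knockout peaks and 41 wild-type peaks.

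Among pseudogenes named after a parent gene, the knockout list touched Ftl1-ps1, a copy of a ferritin light chain gene, with a peak of 250 bp. It touched Cox5b-ps, a copy of a respiratory chain gene, with a peak of 300 bp, and Tdgf1-ps1, a copy of the gene of a Nodal co-receptor, with one of 150 bp. Hmgb1-ps2 and Hmgb1-ps3, copies of a chromatin protein gene, had knockout peaks of 250 and 200 bp. The wild-type list touched Nanog-ps1, a copy of the pluripotency factor Nanog, with a peak of 200 bp (chrX:89883401-89883600). It touched Ctdsp2-ps with 750 bp, and Rybp-ps and Tgif2-ps2 with 500 bp each. Peaks at Llph-ps1, Llph-ps2, Mif-ps, Rab7-ps1 and Ubb-ps, the last a copy of a polyubiquitin gene, were in both lists. These examples were chosen after their positions were seen.

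The parents of these copies often carried a peak themselves. Parents were looked up only for pseudogenes with -ps in their name, 23 in the knockout list and 37 in the wild-type list. Of these, 20 and 24 had a parent in the gene table. Of the 17 distinct parents in the knockout list, 12 held a knockout peak in their own span (70.6%), against 12.2% of all genes. Of 23 parents in the wild-type list, 18 held a wild-type peak (78.3%), against 20.2% of all genes. All genes include lncRNA genes and genes that may have no RNA in these cells. A share among expressed genes could not be given, as the lists hold no levels. The 5 parents without a knockout peak of their own were Gapdh, Npm3, Pisd, Rab7 and Rpl15. A pseudogene and its parent share sequence, so a read from the parent and one from the copy cannot be told apart in these lists.

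A group of pseudogene copies on chromosome 8 carried the same spacing of wild-type peaks 4 times. Clusters of 5 to 7 peaks lay at Gm21811, 6820431F20Rik, 2610005L07Rik and Gm21092, within chr8:20136401-20583000. From the first midpoint of Gm21811 the next ones stood at 5125, 9000, 11075 and 15050 bp, and at Gm21092 they stood at 5175, 9050, 11125 and 15225 bp. Counted from the last peak, the midpoints of 2610005L07Rik stood at 5200, 9050, 11100 and 15125 bp and those of 6820431F20Rik at 5250, 9100, 11175 and 15525 bp. The third peak in this count was 250 bp wide in all 4 clusters. Around these copies the wild-type list had 26 peaks, 24 of them outside genes, and the knockout list had 4, of which 3 were outside genes. Whether the copies are near-identical, so that 1 read could count at several of them, was not tested, as no genome was used.

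**Figure D4:**
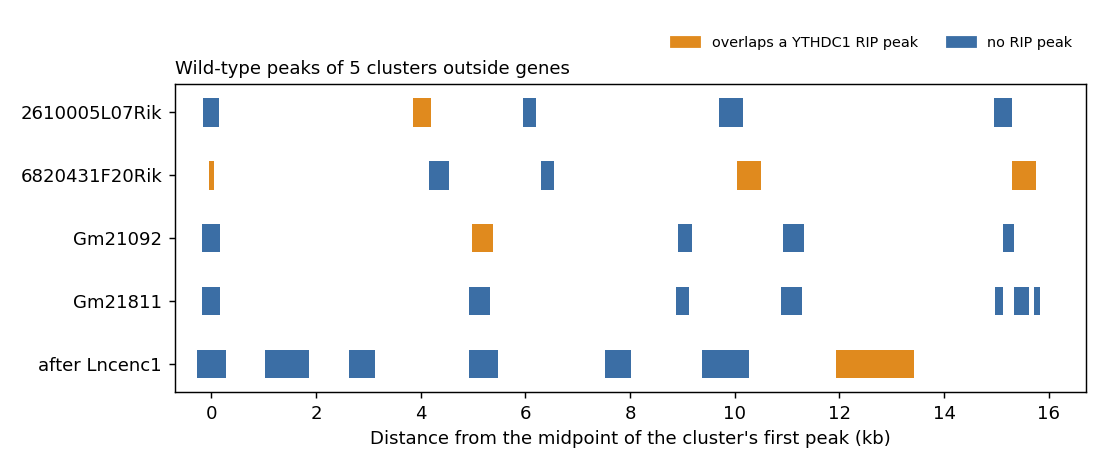
Peaks of the wild-type list in 5 clusters outside genes, drawn to scale as bars along the distance from the midpoint of the cluster's first peak (x axis, kb), 1 row per cluster, with orange for peaks that overlap a YTHDC1 RIP peak and blue for the others. The upper 4 rows are pseudogene copies on chromosome 8, whose gaps repeat in the same or the mirrored order, and the lowest row is the 7 peaks past the end of Lncenc1.

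Clusters held a larger share of the wild-type peaks. With peaks outside genes joined where the gap was at most 5 kb, 37 knockout peaks (12.7%) and 216 wild-type peaks (37.2%) lay in a cluster of 2 or more. In clusters of 3 or more lay 5 knockout peaks (1.72%) and 104 wild-type peaks (17.9%). The only knockout cluster above a pair held 5 peaks before Las1l, a gene of ribosome biogenesis (chrX:95965451-95968650), and none of them overlapped a wild-type or a RIP peak. The wild-type list had 3 clusters of 7 peaks and 5 of 5.

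The cluster with the widest peaks followed Lncenc1, a lncRNA gene of embryonic stem cells on the plus strand (chr13:97434970-97497664). Its 7 wild-type peaks were 550, 850, 500, 550, 500, 900 and 1500 bp wide. They lay 1511.5, 2961.5, 4386.5, 6711.5, 9286.5, 11336.5 and 14186.5 bp past the gene's end. The gap holding them closes at the far end of Gm41030, a lncRNA gene on the minus strand. The last peak, of 1500 bp, lay nearer to Gm41030, and without a strand no peak can be given to either gene. None of the 7 peaks overlapped a knockout peak, and only the last overlapped RIP peaks (2 of them). Lncenc1 itself held 0 knockout peaks, 4 wild-type peaks and 8 RIP peaks. Another cluster of 7 lay in and beside the pseudogene Gm2381, before Vmn2r62, a vomeronasal receptor gene (chr7:42812701-42820250), with a widest peak of 1150 bp.

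Counting any peak of the same list within 5 kb, inside a gene or not, the share with a neighbour was 45.9% in the whole knockout list and 55.2% in the whole wild-type list. Outside genes, a neighbour stood near 62 of 291 peaks in the knockout list (21.3%) and 258 of 580 in the wild-type list (44.5%) (odds ratio 0.338, 0.244 to 0.468, adjusted p = 4.5e-11, Fisher's exact test). In the knockout list the share was 21.3% outside genes and 47.0% inside (odds ratio 0.306, 0.23 to 0.406, Fisher's exact test, adjusted p = 6.9e-18). In the wild-type list it was 44.5% outside and 55.8% inside (odds ratio 0.635, 0.537 to 0.751, Fisher's exact test, adjusted p = 3.9e-07). The wild-type difference missed the threshold with spans of all gene types (0.845) and with peaks wider than the median (0.921). Having a neighbour is mutual between peaks, while the tests take each peak as independent, so these p-values can overstate the evidence. The lists differ in size (6764 and 12368 peaks), and the part of this in the neighbour shares was not tested.

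The peaks outside genes were at most 850 bp wide in the knockout list (median 200 bp) and 1650 bp in the wild-type list (median 250 bp), while inside genes the medians were 250 bp and 400 bp. They covered 72.15 kb and 191.15 kb in all. Of all knockout peaks 31.1% were wider than the list's median, and of all wild-type peaks 46.7%. Outside genes this held for 92 of 291 knockout peaks (31.6%) against 2010 of 6473 inside (31.1%), which did not pass Fisher's exact test (odds ratio 1.03, 0.797 to 1.32, adjusted p = 0.91). In the wild-type list it held for 141 of 580 peaks outside genes (24.3%) against 5631 of 11788 inside (47.8%), an odds ratio of 0.351 (0.29 to 0.426, exact test, adjusted p = 1.6e-28). Widths move in steps of 50 bp, since every m6A peak starts and ends on a 50 bp grid.

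**Figure D5:**
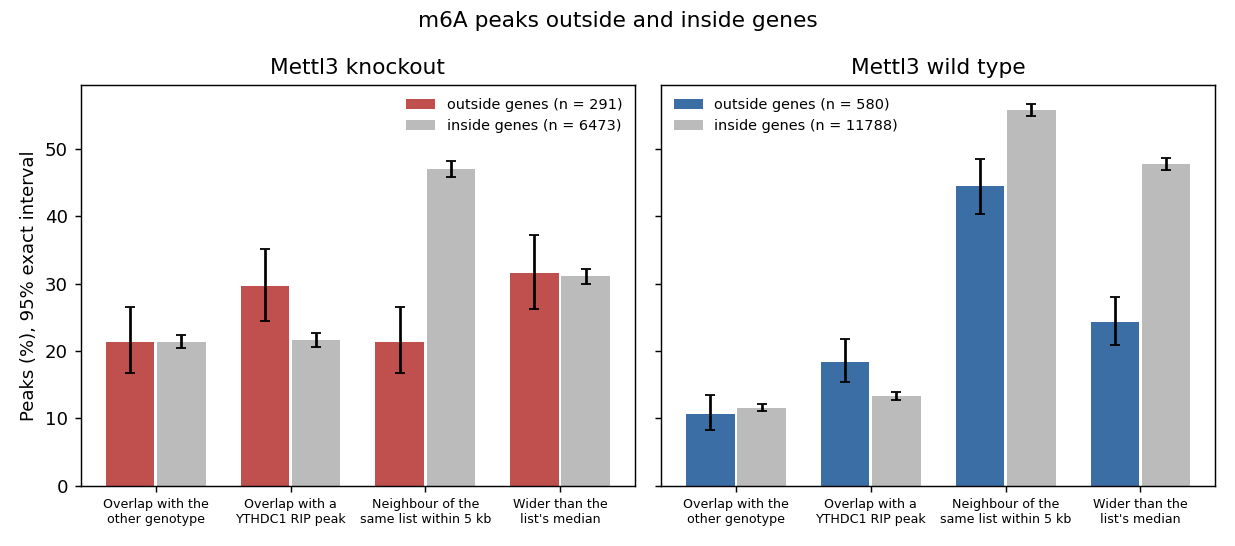
Share of peaks (y axis, percent) with each of 4 features, outside genes (coloured bars, left of each pair) and inside genes (grey bars), in the knockout list on the left and the wild-type list on the right, with exact 95% intervals that cover counting error only. In both lists the bar for RIP overlap is taller outside genes and the bar for a neighbour is shorter, and only in the wild-type panel is the bar for width shorter outside genes.

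Sharing between genotypes did not pass the test between peaks outside and inside genes as the rule defines them. In the whole lists, 21.4% of knockout peaks overlapped a wild-type peak and 11.6% of wild-type peaks overlapped a knockout peak. Outside genes, 62 of 291 knockout peaks did so (21.3%), against 1383 of 6473 inside (21.4%; odds ratio 0.996, 0.748 to 1.33, Fisher's exact test, adjusted p = 1.0). From the wild-type side, 62 of 580 did so (10.7%), against 1372 of 11788 inside (11.6%; odds ratio 0.909, 0.694 to 1.19, Fisher's exact test, adjusted p = 0.63). These intervals still allow moderate differences in either direction. Counting as outside only the peaks with no base in a gene span, 48 of 545 wild-type peaks were shared against 1386 of 11823 others, which passed Fisher's exact test (odds ratio 0.727, adjusted p = 0.05). With at least 50% of the peak overlapped, the wild-type odds ratio turned to 1.18.

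The 62 pairs seen from the wild-type side held 52 in which the knockout peak was outside genes too. The knockout peak was the wider in 35 pairs and the wild-type peak in 16, and 10 pairs had the same start and end. The median width in these pairs was 275 bp for knockout peaks and 200 bp for wild-type peaks. The widest pair lay in the pseudogene Gm18336 before Zfp92, with 800 bp in the knockout list and 1150 bp in the wild-type list. At the start of Arih2, a ubiquitin ligase gene, a wild-type peak of 1000 bp overlapped a knockout peak of 200 bp. At the start of Pspc1, which encodes a paraspeckle protein, the wild-type peak was 600 bp wide and the knockout peak 200 bp. For both genes only the midpoint of the wild-type peak lay outside genes. Beside Jam2, a junctional adhesion molecule gene, both lists held the same 500 bp (chr16:84773851-84774350). Before Ep300, a histone acetyltransferase gene chosen after its position was seen, both peaks were 300 bp wide and shared 250 bp.

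YTHDC1 RIP peaks lay on the peaks outside genes more often than on those inside. In the whole lists, a RIP peak lay on 22.0% of the knockout and 13.5% of the wild-type peaks. In the knockout list this held for 86 of 291 peaks outside genes (29.6%, 24.4 to 35.2) against 1401 of 6473 inside (21.6%), which passed Fisher's exact test (odds ratio 1.52, 1.17 to 1.97, adjusted p = 0.0043). In the wild-type list it held for 107 of 580 outside (18.4%, 15.4 to 21.8) against 1566 of 11788 inside (13.3%), which also passed the exact test (odds ratio 1.48, 1.19 to 1.83, adjusted p = 0.0013). Both differences missed the threshold when spans of all gene types counted as genes, with odds ratios of 1.16 in the knockout list and 1.29 in the wild-type list. The knockout difference also missed it when an overlap had to cover at least 50% of the peak (odds ratio 1.12) and with peaks of at most 300 bp (1.38).

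The knockout list had the higher share with RIP both inside genes (21.6% and 13.3% in the wild-type list) and outside them (29.6% and 18.4%, odds ratio 1.85, 1.34 to 2.57, Fisher's exact test, adjusted p = 0.00076). The outside-over-inside odds ratios of the lists differed by a factor of 1.03 (0.734 to 1.44). The call between lists was lost with spans of all gene types (odds ratio 1.63) and with peaks wider than their list's median (1.74). Outside genes the share was 35.5% in pseudogenes in the knockout list and 21.3% in the wild-type list. In no gene and over 5 kb from one it was 35.8% of 53 peaks in the knockout list and 16.8% of 173 in the wild-type list. Between 200 bp and 5 kb from a gene end it was 6.25% of 32 peaks in the knockout list, against 14.7% of 102 in the wild-type list. Among peaks that overlapped one of the other genotype, 24 of 62 overlapped a RIP peak in the knockout list and 24 of 62 in the wild-type list (38.7% each). Among those in 1 list only it was 62 of 229 in the knockout list (27.1%) and 83 of 518 in the wild-type list (16.0%). The RIP came from Halo-Ythdc1 knockin cells, whose Mettl3 genotype the labels do not name, so a RIP peak on a knockout peak sets RNA of different cells side by side.

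The RIP list itself had 8083 of its 30992 peaks outside genes (26.1%), and 2753 of these were 4 kb wide or more (34.1%). Few of these wide stretches held an m6A peak. Of the 2753, 3 overlapped a knockout peak and 4 a wild-type peak, together 5 (0.182%, 0.059 to 0.423). The m6A samples were made from polyA RNA and the RIP from total RNA without fragmentation. A RIP peak without an m6A peak is thus not shown to lack m6A. Of the 4586 RIP peaks outside genes narrower than 1 kb, 74 overlapped a knockout peak and 87 a wild-type peak, together 144 (3.14%, 2.65 to 3.69). Seen from the m6A side, the widest RIP peak on a peak outside genes had a median width of 268.5 bp in the knockout list and 277 bp in the wild-type list. It was under 1 kb for 81 of 86 in the knockout list and 90 of 107 in the wild-type list.

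Wide RIP peaks were rare on m6A peaks of any kind, at 0.0591% of the knockout list and 0.0728% of the wild-type list. They lay on 3 of 291 knockout peaks outside genes against 1 of 6473 inside (odds ratio 67.4, 6.99 to 650, adjusted p = 0.00076, Fisher's exact test) and on 3 of 580 wild-type peaks outside against 6 of 11788 inside (odds ratio 10.2, 2.55 to 40.9, adjusted p = 0.012). RIP peaks of any kind were wider outside genes, with an upper quartile of 5342 bp against 247 bp inside. These tests do not account for that, so they cannot show a trait of the m6A peaks. With counts this low the odds ratios are also loose. Both missed the threshold when spans of all gene types counted as genes (44.0 and 6.23). The knockout one also missed it with peaks wider than the median (65.9). Far from Pex2, a peroxisome gene, both lists held the same 250 bp (chr3:5750751-5751000) inside a RIP peak of 6298 bp. In the pseudogene Gm5539, a knockout peak of 350 bp and a wild-type peak of 100 bp lay on a RIP peak of 6854 bp. In Gm39743 a wild-type peak of 250 bp lay on one of 7587 bp, and in Gm4739 a knockout peak of 150 bp lay on one of 4871 bp. Past the end of Pcdh15, 3 wild-type peaks and 1 knockout peak lay on 1 RIP peak of 2673 bp.

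Over all 34631 genes, 113 had a knockout peak outside genes within 5 kb (0.326%) and 164 a wild-type peak (0.474%). Of 28 pluripotency genes, the knockout list had 1 such gene, Lefty2, and the wild-type list had 3, Klf2, Lefty2 and Zfp42. Beside Lefty2, an antagonist of Nodal signalling, the peaks of the lists lay at opposite ends of the gene. The knockout peak (chr1:180899101-180899250) was 150 bp wide and lay 68.5 bp from the gene. Wild-type peaks of 150 and 250 bp, within chr1:180892251-180892900, lay 782.5 and 332.5 bp from it. Of 23 m6A factors, 1 had a knockout peak and 0 a wild-type peak outside genes: Igf2bp1, a cytoplasmic m6A reader, had a knockout peak of 400 bp at 56.5 bp that overlapped a wild-type peak by 200 bp. Of 31 genes of retrotransposon silencing, 0 had one in either list. Of 22 nuclear and imprinted lncRNAs, Malat1 had 1 knockout peak and Lncenc1 had 3 wild-type peaks within 5 kb.

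Of 21 genes known from 2-cell-like cells, a rare state resembling the early embryo, 1 had a knockout peak outside genes and 0 a wild-type peak. It was Zscan4b, with a knockout peak of 150 bp centred 14.5 bp past its end. Around the 9 gene models of the Zscan4 family on chromosome 7, the knockout list had 9 peaks within 5 kb, 6 of them outside genes, and the wild-type list had 3, of which 1 was outside genes. The pseudogene models Zscan4a and Zscan4e had 2 knockout peaks each, up to 500 bp wide, and 0 wild-type peaks. Zscan4f had 0 knockout peaks and 2 wild-type peaks, and Zscan4-ps3 had 1 in each list. The members of this family are near-identical, so which of them a peak belongs to is uncertain.

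The X chromosome carried 28 of 291 peaks in the knockout list (9.62%) and 30 of 580 in the wild-type list (5.17%), which passed Fisher's exact test (odds ratio 1.95, 1.14 to 3.33, adjusted p = 0.03). The call was lost with spans of all gene types (odds ratio 2.28), with peaks wider than their list's median (2.74) and with peaks of at most 300 bp (1.63). Inside genes the X held 4.02% of the knockout list and 2.21% of the wild-type list. Chromosome 13 had 16 knockout and 61 wild-type peaks outside genes, and those 61 were 13.1% of its 465 wild-type peaks. Of the Y peaks, 5 of 10 lay outside genes in the knockout list and 5 of 7 in the wild-type list, and a Y peak of 850 bp near Gm33272 was the widest knockout peak outside genes. The peak farthest from a gene was a knockout peak of 100 bp in Gm7392, 993770.5 bp from Nova1, a neuronal splicing factor gene. In the wild-type list it was one of 250 bp in Gm8935, 614063.5 bp from Gm2464.

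A mature microRNA lay under 1 wild-type peak of 100 bp (chr13:74407051-74407150), which overlapped neither a knockout peak nor a RIP peak. It is the copy of mmu-miR-692 named Mir692-3, at chr13:74407121-74407141 on the plus strand, given as RefSeq has it, with the seed (bases 2 to 8) in capitals.
mmu-miR-692: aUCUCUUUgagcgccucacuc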

How the data were processed

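The m6A and RIP samples of mouse embryonic stem cells were represented by 3 deposited peak lists of 3 columns (chromosome, start, end), whose values are positions in bp with no score. The submitters' processing notes name MACS2 2.1.2, HISAT2 2.2.0, STAR 2.7, SAMtools 1.9, Trim Galore 0.6.4 and bcl2fastq, on mm10. Their roles, the peak threshold and any pooling of replicates were not given in these sources. Sequencing depth and enrichment, both unknown here, affect how many peaks are called and how wide, so neither measures the amount of m6A. A Halo-GFP control named in the protocol was not analysed here.

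Gene spans came from the GRCm38.p6 RefSeq gene table (49997 models, 21900 protein-coding and 12731 lncRNA), in mm10 coordinates. Strand came from the RefSeq promoter table for 27025 of 34631 genes (78.0%). An overlap needed at least 1 bp in common. Distances run from the midpoint to the nearest gene end, and neighbours and clusters used gaps of up to 5 kb. Coordinates are 1-based. Shares have exact Clopper-Pearson 95% intervals. Counts of peaks were compared with two-sided Fisher's exact tests, with Wald 95% intervals for odds ratios, and p-values adjusted by Benjamini-Hochberg over 15 tests, or 16 for the added side test, at a threshold of 0.05. The labels do not say if replicates were separate cultures. The code was tested on simulated peaks. Python 3.11.15, pandas 2.3.3, NumPy 2.4.6, SciPy 1.17.1 and matplotlib 3.10.9 were used.

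The peaks, gene lists, tests and alternatives were chosen with earlier results of these data known. Named genes are those at the 10 widest, 10 widest shared and 10 farthest peaks, at the 5 largest clusters, at the 5 genes with most peaks and at the 10 peaks with the widest RIP peak, by list, plus gene list members and those said to be chosen later. Other genes that met the rule are not named. Planned tests of repeats were not run, as no genome was used.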

Additional observations from a re-analysis of the deposited data

Results flagged for a closer look

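The lists differed from each other in how peaks outside genes compared with peaks inside, for 2 of the 4 features tested. Having a neighbour is mutual between peaks, so the p-value for that feature can overstate the evidence. For a neighbour within 5 kb, the odds ratio of outside over inside was 0.306 in the knockout list and 0.635 in the wild-type list, a ratio of 0.481 (95% interval 0.346 to 0.669, adjusted p = 2.9e-05, normal test of the difference of log odds ratios over peaks, n = 291 and n = 580 outside genes). For a width above the list's median, it was 1.03 in the knockout list and 0.351 in the wild-type list, a ratio of 2.92 (2.13 to 4.02, adjusted p = 1.5e-10, the same test with n = 291 and n = 580). The cut was a different width in each list. The median over all peaks was 250 bp in the knockout list and 400 bp in the wild-type list. Knockout peaks had a median width of 200 bp outside genes and 250 bp inside. An odds ratio of 1.03 for widths above the cut thus does not show that their widths were alike. For overlap with RIP peaks the ratio was 1.03 (adjusted p = 0.87) and for overlap with the other genotype 1.1 (adjusted p = 0.86), over n = 291 and n = 580 peaks.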

How the results depend on the processing

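Of 95 alternatives over 16 results, 67 kept the direction and the side of the threshold, 15 lost the call, 6 gained one and 7 turned direction. The values here are odds ratios, outside over inside within a list or knockout over wild type outside genes. With peaks that had no base in a gene span, sharing in the wild-type list became 0.727 and passed (adjusted p = 0.05, Fisher's exact test), the share within 5 kb turned to 0.858, the share in other gene types became 1.61 and passed, and the start side fell to 2.28, still past the threshold. With spans of all gene types as genes, the calls were lost for RIP overlap in the knockout list (1.16), in the wild-type list (1.29) and between lists (1.63), for a neighbour in the wild-type list (0.845), for RIP peaks of 4 kb or more in the knockout list (44.0) and the wild-type list (6.23), and for the X (2.28). The share within 5 kb became 2.17 and passed, width in the knockout list turned to 0.97, and the start side was 7.79. With peaks wider than their list's median, the calls were lost for RIP overlap between lists (1.74), a neighbour in the wild-type list (0.921), RIP peaks of 4 kb or more in the knockout list (65.9), the X (2.74) and the start side (3.18), and sharing in the knockout list turned to 1.03. With peaks of at most 300 bp, RIP overlap in the knockout list (1.38) and the X (1.63) lost the call, and sharing in the knockout list turned to 1.01. With at least 50% of the peak overlapped, RIP overlap in the knockout list was 1.12 and lost the call, and sharing in the wild-type list turned to 1.18. The share near a gene end passed within 1 kb (1.98) and, added after the data were seen, within 200 bp (3.71). Without the X and Y, also added, sharing in the knockout list turned to 1.01, width in the knockout list turned to 0.955, and the share within 5 kb became 1.4 and passed. These settings keep fewer or other peaks by construction, and the cause was not tested further.

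No paired analysis was possible because the lists hold no value per replicate. For the same reason no replicate was left out. The tests of soft-masked repeats, other gene types under spans of all types, and width under width limits were not run. Depth and peak strength are unknown: a peak missing from a list is not shown to be absent from the RNA.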
